A study of Mus musculus with 28 samples.

Results

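The expression of 10 genes of the thioredoxin, peroxiredoxin, superoxide dismutase and catalase systems was measured in mouse 3LL lung cancer cells and in the tumors these cells formed. The members were taken by gene symbol: Txn1, Txnrd1, Srxn1, Prdx1, Prdx3, Prdx5, Prdx6, Sod1, Sod2 and Cat. All 10 were found, among 18509 rows with a symbol and 43143 rows in all, and all 10 passed the filter on low values in each fit. RNA sequencing covered 28 libraries in 7 groups of 4. The groups were WT, KEAP1-KO and KEAP1-NRF2 DKO (DKO) cells in culture, the tumors of Experiment A (WT and KEAP1-KO), and the tumors of Experiment B (KEAP1-KO and DKO).

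The 3LL line is a Lewis lung carcinoma line that grows in immunocompetent C57BL/6 mice. Per the study's methods, the KEAP1-KO line came from a single colony and carried a homozygous 1 bp insertion in Keap1 exon 2. The DKO line was made from the KEAP1-KO line with a guide against Nrf2 exon 5, again from a single colony, so the DKO cells also carried the Keap1 mutation. The hosts were male albino C57BL/6 mice of 6 weeks, and tumors grew subcutaneously in both flanks until day 10. In Experiment A WT cells went to the left flank and KEAP1-KO cells to the right, and in Experiment B KEAP1-KO cells went to the left and DKO cells to the right. Genotype, clone and flank therefore cannot be told apart within an experiment, and WT and DKO tumors also differed in experiment. Tumors of both genotypes of an experiment grew in the same mice, and the labels do not say whether libraries with the same number share a mouse.

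Thioredoxin is a small protein that reduces disulfides in other proteins, and thioredoxin reductase returns it to its reduced form with electrons from NADPH. Peroxiredoxins destroy peroxides through a reactive cysteine and most of them draw on thioredoxin, while sulfiredoxin rescues peroxiredoxins whose cysteine has been over-oxidized. Superoxide dismutases convert superoxide into hydrogen peroxide, which catalase splits into water and oxygen. NRF2 is the transcription factor that KEAP1 marks for degradation, and genes of these systems are among its best known targets, read through a DNA sequence called the antioxidant response element.

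The rows of the table differed in kind. Txn1 (ENSMUSG00000028367, chr4:57943373-57956411), Prdx3 (ENSMUSG00000024997, chr19:60864051-60874556) and Cat (ENSMUSG00000027187, chr2:103453849-103485160) had a gene identifier, all on the minus strand. The other 7 members had a transcript identifier (coordinates in GRCm38, GENCODE vM21). Txnrd1 (ENSMUST00000218082, chr10:82859244-82860949, plus strand), Prdx1 (ENSMUST00000156145, chr4:116685599-116687897, plus strand), Prdx5 (ENSMUST00000145300, chr19:6906697-6909978, minus strand), Sod1 (ENSMUST00000232505, chr16:90220754-90226329, plus strand) and Sod2 (ENSMUST00000233791, chr17:13007859-13008557, plus strand) are annotated as transcripts with a retained intron. The Srxn1 row (ENSMUST00000137751, chr2:152105516-152109211, plus strand) is a processed transcript, and the Prdx6 row (ENSMUST00000192639, chr1:161241015-161251186, minus strand) is annotated for nonsense-mediated decay. Whether such a row holds reads of the named transcript alone or also of other transcripts of the gene is not given in the sources used here. A further 15 rows without a symbol belonged to the same genes and are described beside the member rows. Txn1, Prdx1 and Prdx6 have close copies or pseudogenes in the mouse genome, so reads shared with those copies are uncertain.

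Libraries held between 4222380 and 7524349 reads (median 5619754). Values are log2(normalized count + 4), so that a row without reads is at 2. Keap1, the edited gene, was between 9.35 and 9.56 in WT cells, between 7.52 and 7.65 in KEAP1-KO cells and between 7.30 and 7.47 in DKO cells. In tumors Keap1 was between 8.78 and 8.98 in WT, 7.13 and 7.86 in KEAP1-KO of Experiment A, 7.30 and 7.52 in KEAP1-KO of Experiment B, and 7.24 and 7.51 in DKO. Every library of the edited lines was thus below every WT library. The row of Nfe2l2, the gene of NRF2, is a processed transcript that does not check the edit, and its values overlapped between KEAP1-KO and DKO libraries. Nqo1, a standard NRF2 target, was 3.44 higher on the log2 scale in KEAP1-KO than in WT cells and 5.68 lower in DKO than in KEAP1-KO cells (limma, adjusted p = 1.36e-11 and 1.1e-13). The labels' extraction text names liver, whereas the titles name cells and tumors. Of 8 hepatocyte markers 2 were listed, and their sum stayed at or below 12.3 normalized counts in every library. None of 6 lung markers was listed, and of 6 epithelial markers Epcam and Cldn4 were not. The sum of the 4 listed epithelial markers was 1497 to 5252 normalized counts over all libraries. Most of it came from Krt8 (1439 to 5128), while Cdh1 and Krt19 reached at most 28.9 and 34.1.

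Tumors also hold host cells. The summed level of 8 leukocyte markers was 3612 to 4504 normalized counts in WT tumors, 1172 to 1273 in those of KEAP1-KO cells in Experiment A, 1608 to 2017 for KEAP1-KO in Experiment B and 2580 to 3965 in DKO tumors. In cultured cells it was between 27.2 and 249. Ptprc, the leukocyte antigen CD45, was between 8.89 and 9.01 in WT tumors, 6.27 and 6.87 for KEAP1-KO in Experiment A, 7.22 and 7.69 for it in Experiment B and 8.15 and 8.64 in DKO tumors, and reached at most 2.56 in cultured cells. Of the 8 leukocyte markers 8 were lower in Experiment A when KEAP1 was lost, and in DKO against KEAP1-KO tumors 7 were higher and 1 was lower. The summed level of 7 fibroblast markers was 4814 to 12057 normalized counts in WT tumors against 1961 to 4776 for KEAP1-KO in Experiment A, and 2811 to 3527 for KEAP1-KO against 10750 to 14597 for DKO in Experiment B, where 3 of the 7 were called higher. In Experiment A 2 of the 7 were called lower. Of all rows tested 7.49% were lower in Experiment A, and 4.22% were higher and 4.64% lower in Experiment B. The sum of 7 muscle markers was 21.3 to 456 in DKO tumors and 11.2 to 57.6 in KEAP1-KO tumors of the same experiment. In bulk tumors fewer cells of a type and less RNA per cell cannot be told apart, and the part of host cells in the tumor values below was not tested.

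The promoter sequences were read because most members moved together with the NRF2 genotype. RefSeq windows (GRCm38.p6) of 300 bases, 250 before and 50 from the start site on, were given for 9 of the 10 members, with 11 windows in all because Txnrd1 has several start sites. Prdx6 is named only. The core of the antioxidant response element was searched as TGACNNNGC and the AP-1 site as TGANTCA, on both strands. The core occurred in 12.4% of all 32851 promoter windows and the AP-1 site in 7.81%. The 250 bases before the start site are printed 5′ to 3′ on the gene's strand for the members with a match and for Cat, the member with the widest genotype differences, with the matches in capitals:
Txnrd1, chr10:82858956-82859205, plus strand: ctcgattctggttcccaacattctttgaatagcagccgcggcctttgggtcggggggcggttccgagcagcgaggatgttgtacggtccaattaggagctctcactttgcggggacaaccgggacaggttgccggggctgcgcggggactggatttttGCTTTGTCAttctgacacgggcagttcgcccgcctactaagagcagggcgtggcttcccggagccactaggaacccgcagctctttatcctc
Srxn1, chr2:152105274-152105523, plus strand: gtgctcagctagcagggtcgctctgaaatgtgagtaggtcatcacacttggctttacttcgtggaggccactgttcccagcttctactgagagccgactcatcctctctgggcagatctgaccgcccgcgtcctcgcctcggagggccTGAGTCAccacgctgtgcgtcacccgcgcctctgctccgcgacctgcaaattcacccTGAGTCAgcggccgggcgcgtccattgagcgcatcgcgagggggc
Prdx1, chr4:116685349-116685598, plus strand: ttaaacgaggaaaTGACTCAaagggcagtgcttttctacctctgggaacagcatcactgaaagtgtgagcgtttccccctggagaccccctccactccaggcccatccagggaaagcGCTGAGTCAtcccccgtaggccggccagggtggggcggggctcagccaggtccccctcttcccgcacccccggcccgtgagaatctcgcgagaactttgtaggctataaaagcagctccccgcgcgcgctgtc
Sod1, chr16:90220512-90220761, plus strand: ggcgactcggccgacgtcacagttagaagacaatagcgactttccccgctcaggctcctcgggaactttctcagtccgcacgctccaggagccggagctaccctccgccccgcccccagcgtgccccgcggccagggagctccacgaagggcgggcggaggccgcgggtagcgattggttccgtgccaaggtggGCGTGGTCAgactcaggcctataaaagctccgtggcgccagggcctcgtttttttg
Cat, chr2:103485154-103485403, minus strand: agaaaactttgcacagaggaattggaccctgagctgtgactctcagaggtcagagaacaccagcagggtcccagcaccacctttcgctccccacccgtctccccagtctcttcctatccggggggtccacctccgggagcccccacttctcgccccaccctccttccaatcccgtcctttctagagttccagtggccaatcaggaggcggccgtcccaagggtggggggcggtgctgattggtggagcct

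The core was present in windows of 4 members, each time on the strand opposite to the gene. In Prdx1 it read GCTGAGTCA on the gene's strand, at positions -133 to -125 from the start site, and it overlapped an AP-1 match there. A further Prdx1 AP-1 match lay at -237 to -231. The Srxn1 window held AP-1 matches at -102 to -96 and -45 to -39, and its core match lay past the start, at positions 29 to 37, outside the printed stretch. Txnrd1 had the core at -92 to -84 from the start site at position 82859206, close to the start of its row, and no match at its other start sites. Sod1 had the core at -56 to -48. No match to these letters was present in the windows of Txn1, Prdx3, Prdx5, Sod2 and Cat, which says nothing of sites elsewhere. A match of letters is a description and does not show a bound site.

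The first question was how the members changed when KEAP1 was lost in culture and when NRF2 was then lost as well. In KEAP1-KO against WT cells 6 of the 10 members were higher (Txnrd1, Srxn1, Prdx1, Prdx6, Sod1 and Cat) and 2 were lower (Txn1 and Prdx3), while 8.13% of all 29744 rows tested were higher and 7.33% lower. The median member difference was 0.70 on the log2 scale against 0.02 over all rows. In DKO against KEAP1-KO cells 8 members were lower and none was higher, with 4.85% of all rows lower and 3.98% higher, and the median was -1.30 against -0.03. The comparisons share the KEAP1-KO cells. Prdx5 and Sod2 were not called in either comparison. Tests were by limma with Benjamini-Hochberg adjustment over all rows, called at an adjusted p under 0.05. Labels do not say whether replicates were separate cultures or animals, so p-values measure the spread between these libraries.

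The same questions were asked in tumors. In KEAP1-KO against WT tumors of Experiment A the same 6 symbols were higher and Prdx3 was lower, against 5.61% of 34215 rows higher and 7.49% lower. The median member difference was 0.85, and that of all rows -0.03. In DKO against KEAP1-KO tumors of Experiment B 8 members were lower and none was higher, with 4.64% of rows lower and 4.22% higher and a median of -1.11 against 0. The 8 lower members of Experiment B were the 8 symbols that were lower in DKO cells. The summed levels of leukocyte and fibroblast markers moved with genotype in both experiments, as given above, though most listed fibroblast markers were not called in either experiment.

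**Figure D1:**
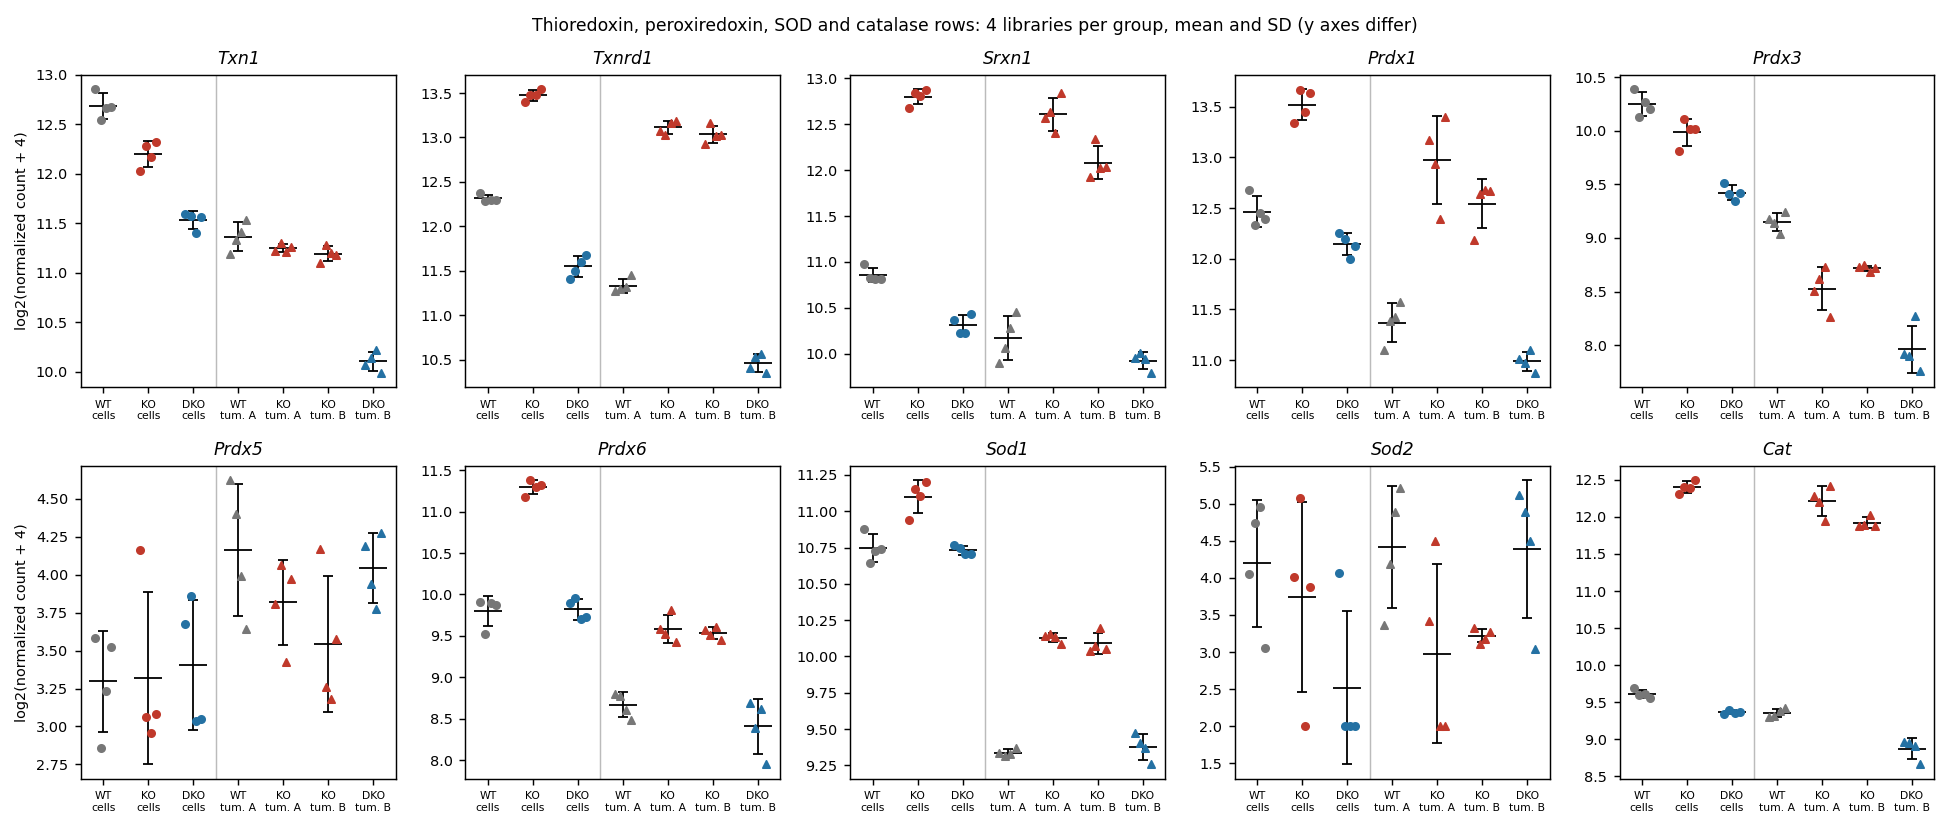
Values of the 10 member rows in the 28 libraries, as log2(normalized count + 4), with 4 points per group and bars for mean and SD. Circles are cells, triangles tumors, grey WT, red KEAP1-KO and blue DKO, and the y axes differ between panels. Cat lay between 11.88 and 12.50 in every KEAP1-KO library and at or below 9.69 in every other library, whereas Prdx5 and Sod2 stayed below 5.22 in every library and spread widely within groups.

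**Figure D2:**
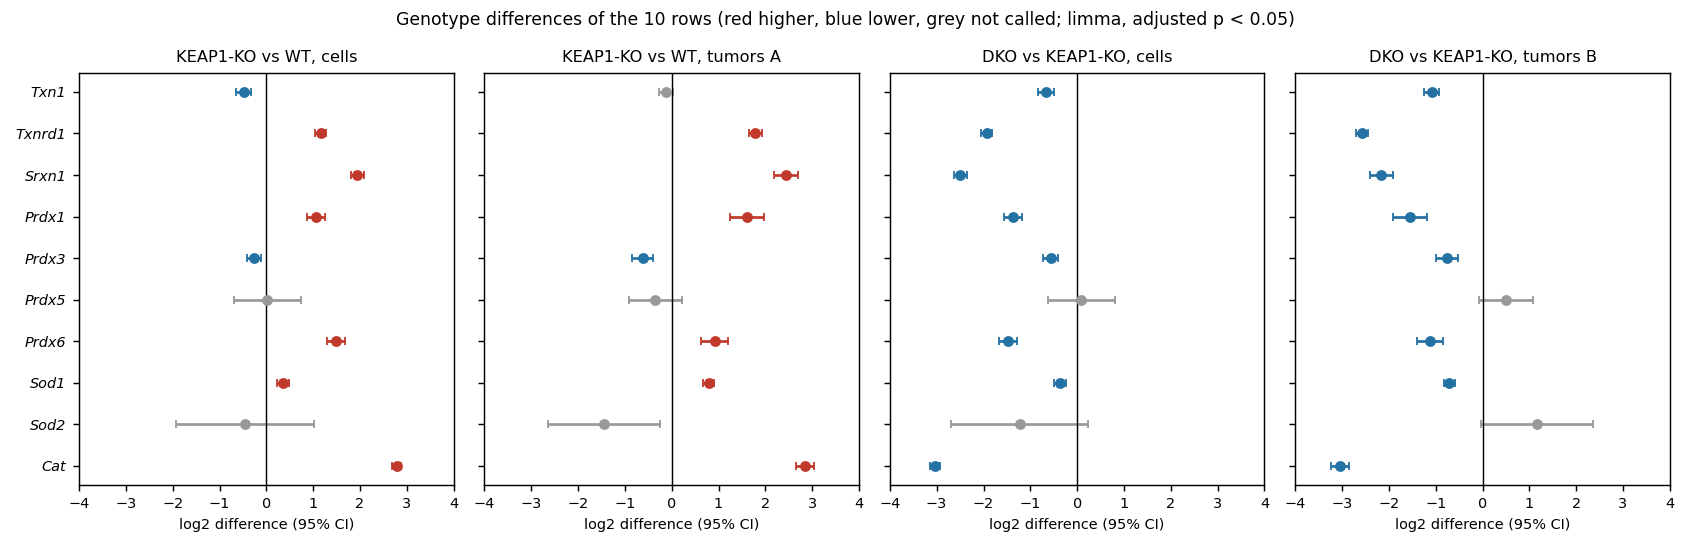
Log2 differences (x axis) with 95% confidence intervals for the 10 members (y axis) in 4 comparisons of genotype, red for higher, blue for lower and grey for not called. For KEAP1-KO against WT 6 members are red, and for DKO against KEAP1-KO 8 are blue, in cells and in tumors.

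Catalase showed the widest differences. Cat was 9.69, 9.60, 9.61 and 9.56 in the WT cells, 12.31, 12.41, 12.39 and 12.50 in the KEAP1-KO cells and 9.34, 9.40, 9.36 and 9.37 in the DKO cells. It rose by 2.79 ± 0.05 (SE) in KEAP1-KO cells (limma, adjusted p = 9.53e-13) and was lower in DKO than in KEAP1-KO cells by a log2 difference of -3.03 ± 0.05 (adjusted p = 6.82e-13). All 4 KEAP1-KO libraries stood far above the others, and the DKO libraries also lay below every WT library. In the tumors of Experiment A Cat was 9.31, 9.32, 9.38 and 9.42 in WT and 12.29, 12.20, 11.94 and 12.42 in KEAP1-KO. In Experiment B it was 11.88, 11.90, 12.03 and 11.88 in KEAP1-KO and 8.97, 8.95, 8.91 and 8.66 in DKO. The differences, 2.86 ± 0.09 and -3.05 ± 0.09, were about as wide as in culture (adjusted p = 1.41e-11 and 3.05e-12).

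Sulfiredoxin, the enzyme that restores over-oxidized peroxiredoxins, had the next widest differences in cells and in Experiment A. In Experiment B Txnrd1 was wider (-2.57 against -2.16). Srxn1 was 10.97, 10.83, 10.82 and 10.82 in WT cells, 12.68, 12.84, 12.81 and 12.88 in KEAP1-KO cells and 10.36, 10.22, 10.22 and 10.44 in DKO cells. The 3 groups of cells did not overlap, and the differences were 1.94 ± 0.06 for KEAP1-KO against WT and -2.49 ± 0.06 for DKO against KEAP1-KO (limma, adjusted p = 6.69e-10 and 5.63e-11). WT tumors had 9.90, 10.07, 10.28 and 10.45, and KEAP1-KO tumors of the same experiment had 12.56, 12.64, 12.40 and 12.84. KEAP1-KO tumors of Experiment B had 11.93, 12.34, 12.02 and 12.04, and DKO tumors had 9.95, 10.01, 9.94 and 9.79. All KEAP1-KO tumors were above all WT and DKO tumors, by 2.44 ± 0.12 in Experiment A (adjusted p = 2.28e-09) and with a DKO difference of -2.16 ± 0.12 in Experiment B (adjusted p = 8.99e-09). The promoter of Srxn1 printed above held AP-1 matches and, past the start, the antioxidant response element core.

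Thioredoxin reductase 1, the cytosolic selenoenzyme that reduces thioredoxin, changed by more in tumors than in cells. Txnrd1 was 12.38, 12.28, 12.30 and 12.30 in WT cells, 13.39, 13.48, 13.48 and 13.55 in KEAP1-KO cells and 11.41, 11.50, 11.60 and 11.68 in DKO cells. The order KEAP1-KO, WT, DKO held without overlap, with differences of 1.16 ± 0.05 and -1.93 ± 0.05 (limma, adjusted p = 1.97e-08 and 1.37e-10). In Experiment A its values were 11.28, 11.29, 11.32 and 11.45 in WT and 13.08, 13.03, 13.17 and 13.18 in KEAP1-KO tumors. In Experiment B they were 12.93, 13.16, 13.02 and 13.03 in KEAP1-KO and 10.40, 10.53, 10.56 and 10.35 in DKO tumors. KEAP1-KO tumors stood above the rest in both experiments, by 1.78 ± 0.06 over WT and with a DKO difference of -2.57 ± 0.06 (adjusted p = 6.04e-11 and 4.83e-13).

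Thioredoxin itself did not rise with KEAP1 loss as its reductase did, but it was lower in DKO as the reductase was. Txn1 was 12.86, 12.54, 12.67 and 12.68 in WT cells, 12.03, 12.28, 12.17 and 12.32 in KEAP1-KO cells and 11.60, 11.58, 11.40 and 11.57 in DKO cells. WT cells were the highest and DKO cells the lowest without overlap, so that KEAP1-KO cells differed from WT cells by -0.49 ± 0.08 and DKO from KEAP1-KO cells by -0.67 ± 0.08 (limma, adjusted p = 0.00073 and 9.43e-05). In tumors the values were 11.18, 11.33, 11.41 and 11.53 for WT and 11.22, 11.30, 11.21 and 11.26 for KEAP1-KO in Experiment A. These groups overlapped, and the difference of -0.12 (95% CI -0.27 to 0.03) did not pass the test (adjusted p = 0.354). KEAP1-KO tumors of Experiment B had 11.10, 11.28, 11.20 and 11.18 and DKO tumors 10.07, 10.14, 10.22 and 9.99. The DKO tumors were lower by a log2 difference of -1.09 ± 0.07 (adjusted p = 7.8e-08).

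Among the peroxiredoxins, Prdx1 and Prdx6 rose with KEAP1 loss and Prdx3 fell. Prdx1, an abundant cytosolic peroxiredoxin, was 12.68, 12.33, 12.46 and 12.39 in WT cells, 13.34, 13.66, 13.45 and 13.64 in KEAP1-KO cells and 12.26, 12.19, 12 and 12.13 in DKO cells. The KEAP1-KO libraries were the highest, with differences of 1.06 ± 0.09 over WT and -1.38 ± 0.09 for DKO against KEAP1-KO (limma, adjusted p = 3.93e-06 and 5.02e-07). In WT tumors Prdx1 was 11.10, 11.39, 11.42 and 11.57, and in KEAP1-KO tumors of Experiment A it was 13.17, 12.93, 12.39 and 13.40. In Experiment B it was 12.18, 12.64, 12.68 and 12.67 in KEAP1-KO and 11.01, 10.98, 11.10 and 10.87 in DKO tumors. The KEAP1-KO tumors spread more widely than the other groups (SD 0.43 in Experiment A) yet did not overlap them, with differences of 1.60 ± 0.17 and -1.55 ± 0.17 (adjusted p = 8.79e-06 and 2.15e-05).

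Prdx6, the peroxiredoxin with a single reactive cysteine that also acts on phospholipids, was 9.91, 9.53, 9.90 and 9.87 in WT cells, 11.18, 11.38, 11.30 and 11.32 in KEAP1-KO cells and 9.89, 9.96, 9.70 and 9.73 in DKO cells. WT and DKO cells overlapped and KEAP1-KO cells lay above both, by 1.49 ± 0.09 over WT (adjusted p = 1.95e-07), and the DKO difference was -1.47 ± 0.09 (adjusted p = 2.7e-07). Tumors had 8.80, 8.78, 8.61 and 8.49 in WT, 9.58, 9.52, 9.82 and 9.42 in KEAP1-KO of Experiment A, 9.57, 9.51, 9.61 and 9.44 in KEAP1-KO of Experiment B and 8.69, 8.39, 8.62 and 7.95 in DKO. Again WT and DKO overlapped below the KEAP1-KO libraries, with differences of 0.92 ± 0.13 and -1.12 ± 0.13 (limma, adjusted p = 0.00019 and 4.97e-05).

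Prdx3, the peroxiredoxin of mitochondria, fell with each edit. It was 10.39, 10.13, 10.27 and 10.20 in WT cells, 9.81, 10.11, 10.01 and 10.02 in KEAP1-KO cells and 9.51, 9.41, 9.35 and 9.42 in DKO cells. The groups did not overlap, but the KEAP1-KO difference of -0.26 ± 0.07 (adjusted p = 0.026) lost its call without WT replicate 1, WT replicate 3, KEAP1-KO replicate 1 or KEAP1-KO replicate 3 (adjusted p from 0.0504 to 0.0702). DKO cells were lower than KEAP1-KO cells by a log2 difference of -0.56 ± 0.07 (adjusted p = 0.000224). WT tumors had 9.18, 9.14, 9.04 and 9.24 and KEAP1-KO tumors 8.50, 8.62, 8.73 and 8.26 in Experiment A. In Experiment B KEAP1-KO tumors had 8.72, 8.74, 8.69 and 8.72 and DKO tumors 7.92, 7.89, 8.28 and 7.76. Both tumor differences, -0.62 ± 0.11 and -0.76 ± 0.11, passed the test without overlap (limma, adjusted p = 0.000895 and 0.000252).

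The Prdx5 row, a peroxiredoxin of mitochondria, peroxisomes and cytosol, was near the lower end of the scale, with 3.24 to 20.7 normalized counts in every library of all groups. Its differences were 0.02 (95% CI -0.70 to 0.73) for KEAP1-KO against WT cells and 0.09 (95% CI -0.63 to 0.80) for DKO against KEAP1-KO cells. In tumors they were -0.35 (95% CI -0.92 to 0.23) and 0.50 (95% CI -0.08 to 1.07). The intervals were wide, and none of the 4 differences was called (limma, adjusted p from 0.327 to 0.983).

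Superoxide dismutases came next. Sod1, the copper-zinc enzyme of the cytosol, was 10.88, 10.65, 10.73 and 10.74 in WT cells, 10.94, 11.16, 11.10 and 11.20 in KEAP1-KO cells and 10.77, 10.75, 10.71 and 10.71 in DKO cells. KEAP1-KO cells lay above both other groups, by 0.35 ± 0.06 over WT and with a DKO difference of -0.37 ± 0.06 (limma, adjusted p = 0.00135 and 0.00163). In tumors WT had 9.33, 9.31, 9.33 and 9.37 and KEAP1-KO 10.14, 10.16, 10.13 and 10.09 in Experiment A. KEAP1-KO tumors of Experiment B had 10.04, 10.08, 10.20 and 10.05 and DKO tumors 9.47, 9.41, 9.37 and 9.26. KEAP1-KO tumors were above WT tumors by 0.79 ± 0.06 (adjusted p = 1.3e-07), and DKO tumors differed from KEAP1-KO tumors by -0.71 ± 0.06 (adjusted p = 7.16e-07).

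The row that carries the symbol Sod2, the manganese enzyme of mitochondria, held few reads and disagreed with the other rows of the gene. It was 4.05, 4.74, 4.96 and 3.05 in WT cells, 4.01, 5.08, 2 and 3.88 in KEAP1-KO cells and 4.06, 2, 2 and 2 in DKO cells, where 2 means no read. In tumors it was 3.36, 4.19, 4.89 and 5.21 in WT and 3.42, 4.49, 2 and 2 in KEAP1-KO of Experiment A. Experiment B had 3.32, 3.11, 3.18 and 3.27 in KEAP1-KO and 5.12, 4.90, 4.50 and 3.05 in DKO tumors. Groups overlapped in all 4 comparisons, and the differences of -0.46 and -1.23 in cells and -1.44 and 1.17 in tumors were not called (limma, adjusted p = 0.739, 0.358, 0.115 and 0.256). Without KEAP1-KO replicate 2 the tumor difference in Experiment A became -1.94 and was called (adjusted p = 0.0262).

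Sod2 had 4 further rows without a symbol, and most of its reads were there. ENSMUST00000233897 had a mean of 8.76 ± 0.09 (SD, n = 4) in WT cells, 7.99 ± 0.22 in WT tumors, 8.09 ± 0.08 and 8.05 ± 0.14 in KEAP1-KO tumors of Experiments A and B, and 7.40 ± 0.11 in DKO tumors. ENSMUST00000233333 had 8.43 ± 0.14 in WT cells and 7.87 ± 0.21 in KEAP1-KO tumors of Experiment B against 7.11 ± 0.31 in DKO tumors. Both fell in DKO against KEAP1-KO tumors, by log2 differences of -0.66 and -0.76 (limma, adjusted p = 0.000904 and 0.0106), opposite in sign to the symbol's own row. Summed over its 5 rows, Sod2 was 9.07 ± 0.14 in KEAP1-KO and 8.45 ± 0.07 in DKO tumors of Experiment B, a difference of -0.61 ± 0.10 (SE, adjusted p = 0.000974). For KEAP1-KO against WT the sum differed by 0.12 in tumors (adjusted p = 0.539) and by 0.20 in cells (adjusted p = 0.0408). This sum was chosen after the data were seen.

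Rows without a symbol were counted in the same way. Of 13 such rows tested in tumors 6 were higher and none lower for KEAP1-KO against WT, and 9 were lower and none higher for DKO against KEAP1-KO, where 5.61% of all rows were higher in the former and 4.64% lower in the latter. In cells 8 of 14 were higher and none lower, then 8 lower and none higher, against 8.13% of all rows higher and 4.85% lower. The lower count in tumors includes both Sod2 rows named above. Srxn1 ENSMUST00000128882, another processed transcript of the gene, differed by 3.84 ± 0.62 (SE) in Experiment A and by -2.65 ± 0.62 in Experiment B (limma, adjusted p = 0.000461 and 0.012). Prdx1 ENSMUST00000151129, annotated as protein coding, differed by 1.83 ± 0.22 and -2.08 ± 0.22 in tumors (adjusted p = 2.34e-05 and 1.17e-05).

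**Figure D3:**
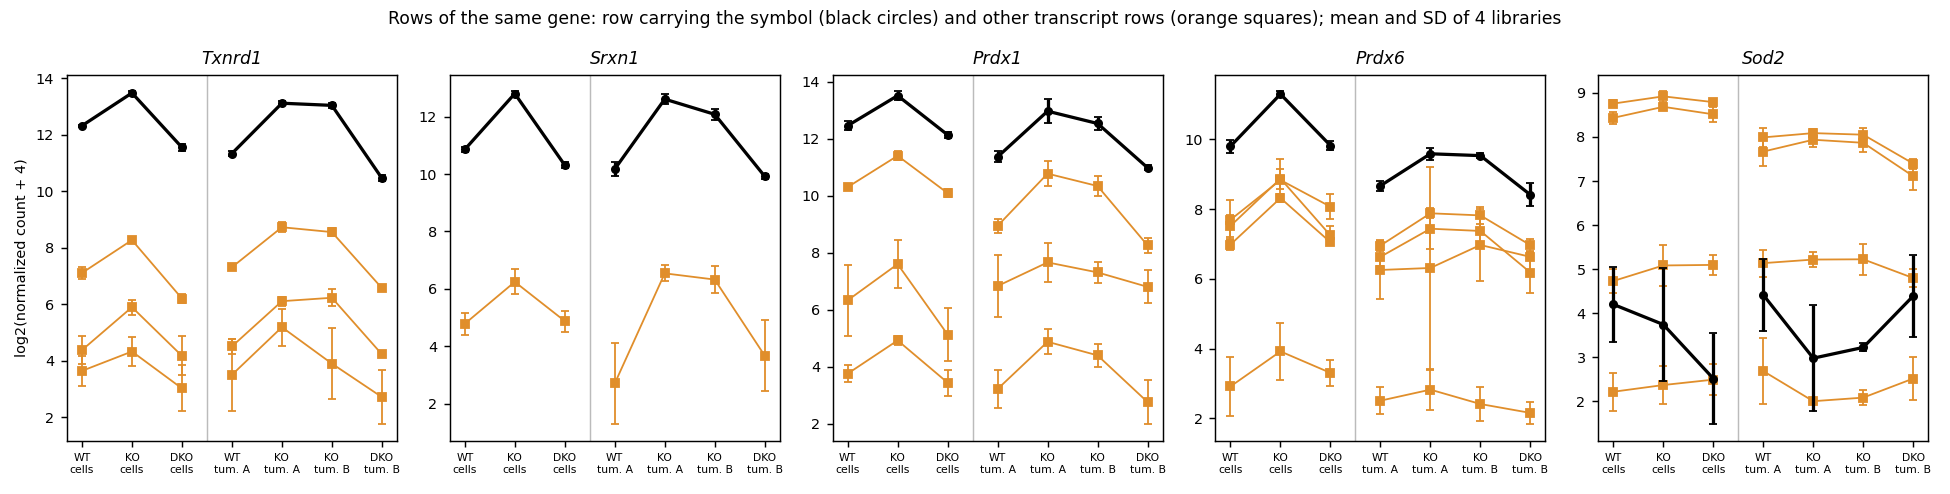
Mean and SD of 4 libraries, as log2(normalized count + 4), in the 7 groups for every row of Txnrd1, Srxn1, Prdx1, Prdx6 and Sod2, with the row that carries the symbol in black and the other rows in orange. The black line is the highest for Txnrd1, Srxn1, Prdx1 and Prdx6, but for Sod2 it lies below a pair of orange rows with means between 7.11 and 8.92, and those rows are lowest in DKO tumors.

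A further question was whether DKO returned the members to the WT level. In DKO against WT cells 6 members were lower and none was higher, with 17.7% of all rows called in either direction. The differences were -1.15 for Txn1, -0.83 for Prdx3, -0.77 for Txnrd1, -0.55 for Srxn1, -0.32 for Prdx1 and -0.25 for Cat (limma, adjusted p from 4.91e-07 to 0.0243). The Prdx1 call was lost without WT replicate 1, DKO replicate 3 or DKO replicate 4 (adjusted p from 0.0566 to 0.0716). Prdx6 and Sod1 differed by 0.02 (95% CI -0.17 to 0.21) and -0.02 (95% CI -0.15 to 0.12), with libraries that overlapped. Sod2 was at 2 in 3 of 4 DKO libraries and its difference of -1.68 did not pass (limma, adjusted p = 0.114), but it became -2.20 and passed without DKO replicate 1 (adjusted p = 0.0387). The sum of all Sod2 rows differed by 0.04 (adjusted p = 0.704), with means of 9.72 in DKO and 9.67 in WT cells.

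In DKO against WT tumors, which came from different experiments and flanks, 4 members were lower and none was higher, against 10.6% of all rows called in either direction. The 4 were Txn1 (-1.26 ± 0.07), Prdx3 (-1.19 ± 0.11), Txnrd1 (-0.87 ± 0.06) and Cat (-0.49 ± 0.09) (limma, adjusted p from 4.38e-08 to 0.0022). Prdx1 missed the threshold (-0.38, adjusted p = 0.191), as did Srxn1 (-0.25, adjusted p = 0.216). Sod1 differed by 0.04 (95% CI -0.08 to 0.16). The Sod2 row differed by -0.02 (adjusted p = 0.988), whereas the sum of all Sod2 rows was lower in DKO tumors, at -0.54 ± 0.10 (adjusted p = 0.00259). Ptprc was 0.49 lower on the log2 scale in DKO than in WT tumors (adjusted p = 0.0325).

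KEAP1-KO tumors were present in both experiments, in opposite flanks, and served as a check between them. None of the 10 members was called between Experiments B and A (limma), where 0.164% of all rows were called. At an unadjusted p under 0.05 there were 3 members (Srxn1, Prdx1 and Cat), and 1 was called when all 28 libraries were fitted together. Srxn1 libraries did not overlap, being lower in Experiment B by a log2 difference of -0.53 ± 0.12 (adjusted p = 0.119). Prdx1 differed by -0.43 (95% CI -0.80 to -0.07), Cat by -0.29 (95% CI -0.48 to -0.10) and Txnrd1 by -0.08 (95% CI -0.21 to 0.06). Ptprc was 0.81 higher in Experiment B (adjusted p = 0.0406), and experiment, flank and host cells were not tested apart.

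Members were then compared between tumors and the cells of the same genotype. On the deposited scale 8 members were lower in WT tumors than in WT cells and Prdx5 was higher (38.8% of all 37246 rows called in either direction). In KEAP1-KO tumors of Experiment A 7 were lower (39.6% of rows), in those of Experiment B 8 were lower (38.8%), and in DKO tumors 8 were lower and the Sod2 row was higher (43.5%). The sum of all Sod2 rows went the other way in DKO tumors, at -1.26 ± 0.09 (limma, adjusted p = 5.23e-12). These comparisons depend on scaling, since the median of all rows was 0.16 to 0.23 higher in tumors as deposited, -0.05 to 0.01 after quantile normalization, -0.19 to -0.07 after median centring, and 0.37 to 0.52 after rescaling without the 20 highest rows. Txn1, Prdx3, Prdx6 and Sod1 stayed lower and called in all 4 genotype groups under the 3 scaling alternatives. Cat, Srxn1 and Txnrd1 did not in every group, Prdx1 lost its call for KEAP1-KO in Experiment A, and quantile normalization turned Cat from -0.26 to 0.19 in WT tumors against WT cells. The Cat call in KEAP1-KO tumors of Experiment A was lost without KEAP1-KO cell replicate 2, 3 or 4 or tumor replicate 2 or 3 (adjusted p from 0.0731 to 0.254). The Prdx5 call in WT tumors was lost without cell replicate 2 or tumor replicate 1 or 2 (0.0566 to 0.0773), and the Sod2 call in DKO tumors without cell replicate 2, 3 or 4 or tumor replicate 1 or 2 (0.0549 to 0.0645). In the other direction, Srxn1 in KEAP1-KO tumors of Experiment A was called without tumor replicate 4 (-0.27, adjusted p = 0.046), and Prdx5 was called without cell replicate 1 there (0.78, adjusted p = 0.0307) and without cell replicate 2 in DKO (0.79, adjusted p = 0.0437).

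For Txn1, Prdx3, Prdx6 and Sod1 the log2 differences between tumors and cells ran from -1.76 to -0.95 on the deposited scale, from -1.21 to -0.35 after quantile normalization, from -2.04 to -1.19 after median centring and from -1.41 to -0.62 after rescaling without the 20 highest rows. On the deposited scale Sod1 differed between tumors and cells by -1.41 ± 0.06 for WT, -0.97 ± 0.06 and -1.01 ± 0.06 for KEAP1-KO in Experiments A and B, and -1.35 ± 0.06 for DKO (limma, adjusted p at most 3.28e-13). Txn1 differed by -1.32, -0.95, -1.01 and -1.43 in the same order, and Prdx6 by -1.13, -1.71, -1.76 and -1.41. No library of these genes overlapped between tumors and cells of a genotype. Tumors held host leukocytes and cultures did not, at the levels given above, and the part of this in the differences was not tested.

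Whether the genotype differences themselves were of another size in tumors than in cells was tested as a difference of differences. For KEAP1-KO against WT 5 members passed (5.38% of all rows in either direction). The difference was wider in tumors for Txnrd1 by 0.62 ± 0.08 (limma, adjusted p = 1.92e-05), Srxn1 by 0.49 ± 0.14 (adjusted p = 0.0422) and Sod1 by 0.44 ± 0.08 (adjusted p = 0.000654). The test used KEAP1-KO tumors of Experiment A. For Srxn1 these differed from KEAP1-KO cells by -0.19, against -0.72 for KEAP1-KO tumors of Experiment B. Txn1, which fell in cells on KEAP1 loss, gave 0.37 ± 0.11 (adjusted p = 0.0371). Prdx6 rose by less in tumors, with -0.58 ± 0.17 (adjusted p = 0.047). The Prdx6 call was lost after quantile normalization and median centring (adjusted p = 0.196 and 0.172), and the Srxn1 call after quantile normalization (adjusted p = 0.0644). Without the trend in limma the calls of Txnrd1 and Sod1 were left, with the other 3 at adjusted p from 0.0985 to 0.155. With the replicate block the Txn1 call was lost (limma, adjusted p = 0.0643). The calls of Txnrd1 and Sod1 held without each of the 16 libraries in turn, while those of Srxn1, Prdx6 and Txn1 were lost without 13, 12 and 10 of the 16 libraries (adjusted p up to 0.105, 0.115 and 0.0944). The Srxn1 call was kept without WT tumor replicate 3 or 4 or KEAP1-KO tumor replicate 3 of Experiment A, and lost without any other library. The Prdx6 call was kept without WT cell replicate 1, KEAP1-KO cell replicate 1, WT tumor replicate 4 or KEAP1-KO tumor replicate 3. The Txn1 call was kept without WT cell replicate 2, KEAP1-KO cell replicate 2 or 4, WT tumor replicate 3 or 4 or KEAP1-KO tumor replicate 3. Prdx1, at 0.55 (adjusted p = 0.158), was called without KEAP1-KO tumor replicate 3 of Experiment A (0.74, adjusted p = 0.00705), and Cat was at 0.07 (95% CI -0.15 to 0.29).

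For DKO against KEAP1-KO 3 members passed, against 3.67% of all rows in either direction. The fall was wider in tumors for Txnrd1 (-0.65 ± 0.08, adjusted p = 2.61e-05), Txn1 (-0.42 ± 0.11, adjusted p = 0.0192) and Sod1 (-0.34 ± 0.08, adjusted p = 0.0108, limma). Without the trend in limma only Txnrd1 was called, with Txn1 and Sod1 at adjusted p = 0.115 and 0.135, and with the replicate block Sod1 was lost (adjusted p = 0.054). The Txn1 call was lost without KEAP1-KO cell replicate 1 (-0.37, adjusted p = 0.0533). Prdx6 gave 0.35 (adjusted p = 0.363) and was called without DKO tumor replicate 4 (0.51, adjusted p = 0.0446). Srxn1 fell by less in tumors than in cells, at 0.33, and was not called (limma, adjusted p = 0.271). The sum of all Txnrd1 rows passed both tests, at 0.60 ± 0.08 for KEAP1 (adjusted p = 1.93e-05) and -0.61 ± 0.08 for NRF2 (adjusted p = 3.61e-05). This sum includes the row with the symbol, which held most of its reads, so it is no separate check. The 3 Txnrd1 rows without a symbol passed neither, with adjusted p from 0.434 to 0.952 for KEAP1 and from 0.827 to 0.976 for NRF2. The sum of the Sod2 rows fell by more in tumors (-0.45, adjusted p = 0.0371). The leukocyte markers moved in the same test, with 6 lower and 1 higher of 8 for KEAP1 and 6 higher of 8 for NRF2, and their part in these values was not tested.

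**Figure D4:**
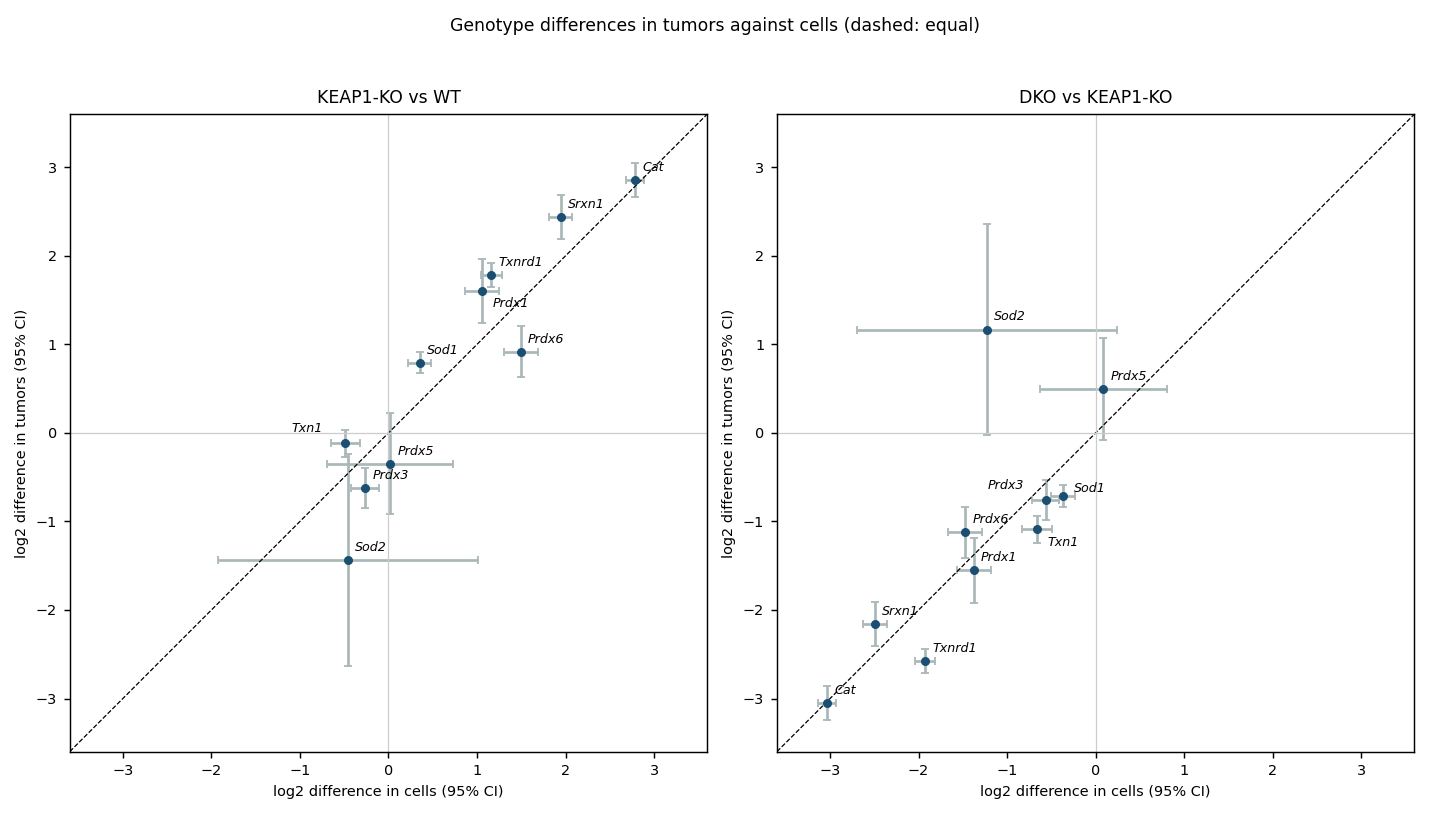
Log2 differences with 95% confidence intervals of the 10 members in tumors (y axis) against cells (x axis), for KEAP1-KO against WT on the left and DKO against KEAP1-KO on the right, with a dashed line where both are equal. Txnrd1 lies above the line on the left (1.78 in tumors, 1.16 in cells) and below it on the right (-2.57 and -1.93), while Cat lies close to it.

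Genes next to the members in these pathways were read from lists. Their counts stand against all rows tested, of which 5.61% were higher and 7.49% lower for KEAP1-KO against WT tumors, 4.22% and 4.64% for DKO against KEAP1-KO tumors, 8.13% and 7.33% for KEAP1-KO against WT cells, and 3.98% and 4.85% for DKO against KEAP1-KO cells. Nothing particular to a list is read from counts this small. Of 11 other family genes (remaining peroxiredoxins, thioredoxins, reductases, Sod3, Ccs, Txnip and sestrins) none was higher and 3 were lower in KEAP1-KO against WT tumors, and 1 was higher and 1 lower in DKO against KEAP1-KO tumors. In cells 9 were tested, with 1 higher and 4 lower, then 2 higher and none lower. Txnrd2, the mitochondrial reductase, was 7.39 in KEAP1-KO against 8.28 in WT cells (difference -0.89 ± 0.06, limma, adjusted p = 1.1e-06), the reverse of Txnrd1. Sesn2, a stress-induced sestrin, differed by 1.44 ± 0.07 in DKO against KEAP1-KO cells (adjusted p = 2.58e-08) and by -0.28 in tumors (adjusted p = 0.21), and the difference between them passed the test (-1.72, adjusted p = 7.87e-08). Txnrd3 differed by -0.76 ± 0.13 in DKO against KEAP1-KO tumors (adjusted p = 0.0012) and Sesn1 by -0.62 ± 0.09 in KEAP1-KO against WT cells (adjusted p = 0.000265). Prdx4, the peroxiredoxin of the endoplasmic reticulum, differed by -0.31 in KEAP1-KO against WT cells and 0.45 in DKO against KEAP1-KO cells (adjusted p = 0.0161 and 0.00248).

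Of 20 listed genes with a thioredoxin domain 17 were tested in tumors, with 4 higher and 5 lower for KEAP1-KO against WT and 3 higher and 2 lower for DKO against KEAP1-KO. In cells 18 were tested, with 3 higher and 4 lower, then 2 higher and none lower, beside the shares of all rows just given. Their examples were Pdia6, a disulfide isomerase (-1.06 in KEAP1-KO against WT cells, limma, adjusted p = 0.000767), Txndc15 (-0.86 in the same comparison, adjusted p = 0.0448), and, in DKO against KEAP1-KO tumors, Txndc2 (-1.45, adjusted p = 0.00196) and Tmx4 (1.06, adjusted p = 0.0231). Of 14 listed glutaredoxin, glutathione peroxidase and methionine sulfoxide reductase genes 11 were tested, with 2 higher and 1 lower for KEAP1-KO against WT tumors and 2 higher and 1 lower for DKO against KEAP1-KO tumors. In cells 1 was higher and none lower, then 2 higher and 1 lower. Gsr, glutathione reductase, was higher in KEAP1-KO and lower in DKO as Txnrd1 was, with differences of 0.92 and -1.79 in tumors and 0.98 and -1.35 in cells (adjusted p = 1.85e-06, 1.58e-09, 2.43e-08 and 1.08e-09).

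Of 9 listed superoxide-producing oxidase genes 8 were tested in tumors, with 5 lower and none higher for KEAP1-KO against WT and 5 higher and none lower for DKO against KEAP1-KO, where 7.49% of all rows were lower and 4.22% higher. Cybb, the catalytic subunit of the phagocyte oxidase, differed by -2.99, then 1.24 (limma, adjusted p = 8.42e-08 and 0.000767). It is expressed in phagocytes and moved with the leukocyte markers above, whose part was not tested. Of 5 thioredoxin client genes tested in tumors, 1 was lower for KEAP1-KO against WT, which was Map3k5, the kinase ASK1 that thioredoxin holds inactive (-1.86, limma, adjusted p = 3.7e-05). Of 4 genes of selenocysteine synthesis tested, none was called in either tumor comparison by limma, with 0 in Experiment A and 1 in Experiment B at an unadjusted p under 0.05, and 3 were lower in KEAP1-KO against WT cells, among them Pstk (-0.39, adjusted p = 0.029).

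Finally, the rows whose values across the 28 libraries were most like those of each member were named by Pearson's r, as a description over libraries that share genotype groups. Cat and Srxn1 were most like Gsta4, a glutathione transferase, with r = 0.993 and 0.990, and were like each other (r = 0.984). Txnrd1 was most like Gclc, the catalytic subunit of glutathione synthesis (r = 0.988), and Pgd of the pentose phosphate pathway was among the first 3 for Txnrd1 (r = 0.983) and Prdx1 (r = 0.962). Txn1 was most like Cavin3 (r = 0.977), Prdx3 most like Eri1 (r = 0.983) and Sod1 most like Ndufa4 (r = 0.984). Txn1 and Prdx3 were like each other (r = 0.95), and their r with Cat was 0.238 and 0.0727. For Prdx5 and Sod2 the highest values were 0.766 (Slc41a2) and 0.601 (Slc35a3).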

How the data were processed

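RNA was sequenced from 28 libraries, 4 in each of 7 groups of 3LL cells and tumors, after ribosomal RNA depletion with directional libraries. Per the study's methods, reads were quantified with Salmon against mouse GENCODE transcripts and processed in iDEP. The deposited values are log2(normalized count + 4), made by the authors. The methods name TPM, but the table does not hold TPM: after undoing the log2 scale, the low values of each library were whole multiples of the value of 1 read (100% within a tolerance of 0.05 reads, checked up to 10 reads). From these steps libraries held 4222380 to 7524349 reads. Between 13.9% and 23.5% of rows had no read.

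Members were the rows whose symbol is on the list. The members and gene lists were chosen with earlier results of these data known. Differences were tested on the log2 scale with limma 3.58.1 (R 4.3.3, empirical Bayes with a trend), after a filter that kept a row where 4 or more libraries of the fit reached 5 normalized counts, in fits of 16 tumor libraries, 12 cell libraries, or all 28 for comparisons of tumors with cells. P-values were adjusted by Benjamini-Hochberg over all rows, and intervals are 95%. The scripts were tested on simulated data. In all 13 comparisons were made. Alternatives were the pseudocount, the filter, scaling, the samples fitted, the trend, a replicate block, sums of rows and leaving out each library.

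Named genes were all members, Keap1, Nfe2l2, Nqo1 and Ptprc, up to 4 genes per list with the largest called differences without overlap, and the 3 rows most correlated with each member. Prdx4 and further comparisons of Gsr, Txnrd2, Sesn2 and Cybb were given after their values were seen. Promoters came from RefSeq windows of GRCm38.p6, and row coordinates from GENCODE vM21 (GRCm38). The labels' extraction text names liver, which the titles do not. A withheld item is not reported here.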

Additional observations from a re-analysis of the deposited data

Results flagged for a closer look

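Of 97 groups of 4 libraries tested for a library far from the others, 10 had one, where chance gives about 1 in 20. In 2 of the 10, Sod2 in DKO cells and Ptprc in WT cells, the other 3 libraries were tied at 2 with no read, so that any read stands apart, and the 10 cannot be read against that share. Among the members these were Txn1 in DKO cell replicate 3 (11.4, the lowest), Srxn1 in WT cell replicate 1 (10.97, the highest), Prdx1 in KEAP1-KO tumor replicate 1 of Experiment B (12.18, the lowest), Prdx5 in KEAP1-KO cell replicate 1 (4.165, the highest), Prdx6 in WT cell replicate 2 (9.527, the lowest), Sod2 in DKO cell replicate 1 (4.062, the highest, the other 3 being at 2) and Cat in KEAP1-KO tumor replicate 3 of Experiment B (12.03, the highest). Among the check genes they were Ptprc in WT cell replicate 3 (2.346, the highest), Keap1 in DKO cell replicate 3 (7.467, the highest) and Keap1 in KEAP1-KO tumor replicate 3 of Experiment B (7.296, the lowest).

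The KEAP1-KO against WT difference was of another size in tumors than in cells for Txn1 (0.37), Txnrd1 (0.62), Srxn1 (0.49), Prdx6 (-0.58) and Sod1 (0.44), as log2 differences of differences. The DKO against KEAP1-KO difference did so for Txn1 (-0.42), Txnrd1 (-0.65) and Sod1 (-0.34). Of these, the calls of Srxn1, Prdx6 and Txn1 in the first test were lost without 13, 12 and 10 of the 16 libraries, and those of Srxn1 and Prdx6 also under a scaling alternative. In the second, Txn1 and Sod1 were not called without the trend (adjusted p = 0.115 and 0.135).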

How the results depend on the processing

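Counts of members called were also taken under other settings. With an absolute log2 difference of at least 1 added, the count was 4 for KEAP1-KO against WT tumors, 2 for DKO against WT tumors, 5 for KEAP1-KO against WT cells, 5 for DKO against KEAP1-KO cells, 1 for DKO against WT cells, 5 for WT tumors against cells, 2 for KEAP1-KO tumors of A against cells, 4 for KEAP1-KO tumors of B against cells, 0 for the KEAP1 difference of differences and 0 for the NRF2 difference of differences. Other settings that moved a count by over 1.5 times were all 28 libraries in 1 fit (1 for KEAP1-KO tumors of Experiment B against A), rescaling without the 20 highest rows (4 for KEAP1-KO tumors of A against cells), pseudocount 0.4 (3 for the KEAP1 difference of differences), quantile normalization (3 for the KEAP1 difference of differences), only the groups compared in the fit (3 for the KEAP1 difference of differences), no trend (2 for the KEAP1 difference of differences) and no trend (1 for the NRF2 difference of differences). The labels do not say whether same-numbered tumors of an experiment share a mouse, and same-numbered libraries did not deviate together (correlations of deviations -0.009 to 0.032 in Experiment A, -0.028 to 0.011 in B and -0.032 to 0.033 in cells). With the replicate number as a block the count was 7 for KEAP1-KO against WT tumors, 8 for DKO against KEAP1-KO tumors, 7 for KEAP1-KO against WT cells, 8 for DKO against KEAP1-KO cells, 5 for DKO against WT cells, 4 for the KEAP1 difference of differences and 2 for the NRF2 difference of differences. The block could not be fitted across experiments or between tumors and cells. The sign turned under the sum of all rows of the gene (added after seeing the data) for Sod2 in KEAP1-KO against WT tumors (0.12), Sod2 in DKO against KEAP1-KO tumors (-0.61), Sod2 in KEAP1-KO tumors of Experiment B against A (-0.0471), Sod2 in KEAP1-KO against WT cells (0.20), Sod2 in DKO against WT cells (0.043), Sod2 in WT tumors against cells (-0.68), Sod2 in DKO tumors against cells (-1.26) and Sod2 in the NRF2 difference of differences (-0.45). The sign turned under quantile normalization for Sod2 in DKO against WT tumors (0.0002), Prdx5 in KEAP1-KO against WT cells (-0.0472), Prdx6 in DKO against WT cells (-0.0116), Sod2 in WT tumors against cells (-0.13), Cat in WT tumors against cells (0.19), Txnrd1 in KEAP1-KO tumors of A against cells (0.16), Srxn1 in KEAP1-KO tumors of A against cells (0.30), Cat in KEAP1-KO tumors of A against cells (0.33), Txnrd1 in KEAP1-KO tumors of B against cells (0.12), Prdx5 in KEAP1-KO tumors of B against cells (-0.0198), Cat in KEAP1-KO tumors of B against cells (0.12), Srxn1 in DKO tumors against cells (0.27), Cat in DKO tumors against cells (0.0238) and Prdx1 in the NRF2 difference of differences (0.0906). The sign turned under rescaling without the 20 highest rows for Sod2 in DKO against WT tumors (0.0396), Cat in WT tumors against cells (0.12), Srxn1 in KEAP1-KO tumors of A against cells (0.14), Cat in KEAP1-KO tumors of A against cells (0.14), Srxn1 in DKO tumors against cells (0.0671) and Cat in the NRF2 difference of differences (0.0787). The sign turned under a pseudocount of 0.4 for Prdx5 in KEAP1-KO against WT cells (-0.0032). The sign turned under median centring for Prdx5 in KEAP1-KO against WT cells (-0.0496), Sod2 in WT tumors against cells (-0.18) and Prdx5 in KEAP1-KO tumors of B against cells (-0.0461). Leaving out each library in turn gave ranges that held both signs for Prdx6 in KEAP1-KO tumors of Experiment B against A (-0.11 to 0.0236), Sod2 in KEAP1-KO tumors of Experiment B against A (-0.0811 to 0.75), Prdx5 in DKO against WT tumors (-0.29 to 0.0336), Sod2 in DKO against WT tumors (-0.38 to 0.42), Prdx5 in KEAP1-KO against WT cells (-0.26 to 0.14), Sod2 in KEAP1-KO against WT cells (-0.90 to 0.12), Prdx5 in DKO against KEAP1-KO cells (-0.0647 to 0.37), Sod1 in DKO against WT cells (-0.05 to 0.0272), Prdx5 in DKO against WT cells (-0.0465 to 0.23), Prdx6 in DKO against WT cells (-0.0717 to 0.0599), Sod2 in WT tumors against cells (-0.17 to 0.57), Cat in the KEAP1 difference of differences (-0.0003 to 0.16) and Cat in the NRF2 difference of differences (-0.0496 to 0.0514). The cause of these changes was not tested. Over the same omissions the count of members called ran from 2 to 6 for the KEAP1 difference of differences. Of the single-member values, 1427 kept direction and side of the threshold under the other settings, 77 lost the call, 7 gained it and 32 turned sign, and without single libraries the numbers were 1111, 56, 7 and 26. The genotype comparisons kept every call under the 3 scaling alternatives. The Prdx5 and Sod2 rows held at most 20.7 and 33.1 normalized counts, and the part of depth in their spread was not tested.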
